A study of Homo sapiens and Mus musculus with 27 samples.

Results

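The libraries described here are those labelled HCC1937 that received TM, set against those that received vehicle, and they are 6 of the 27 libraries of the series. They were taken by the cell line and agent in their labels, and all genes of the deposited count table were fitted on these 6 libraries alone. TM at 10 µM was given to 3 biological replicates, and vehicle to 3 biological replicates that serve as controls. Another group of 3 libraries with the same cell line label received 10 µM AMD3100, a blocker of the chemokine receptor CXCR4, and enters only the last comparison. The other libraries of the series, from MDA-MB-231 cells and from 4T1 tumours, were not used here. What TM stands for is not written out in the labels, so it is kept here as the agent's name, and the length of the exposure is not given in the sources used here. HCC1937 is an established human breast cancer line. All 3 groups carry the label of this 1 line, and no untransformed cells were compared. The labels call the replicates biological without saying what was kept separate, so p-values measure the spread between these libraries.

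Poly(A) RNA was sequenced as paired reads of 150 bases. Total counts were 43148862, 38189932 and 43973262 with TM, and 39033097, 41675186 and 41034469 with vehicle. Mitochondrial features held 11.3% of counts in each TM library, against 11.1% to 11.6% with vehicle. The common biological coefficient of variation of the 6 libraries was 0.0722. The first principal component held 55.2% of the variance and separated the TM libraries from the vehicle libraries.

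The cell line label was checked against the breast epithelial markers before any comparison. KRT8, KRT18 and KRT7, keratins of simple epithelia, were abundant, and KRT8 had 64054, 57970 and 66602 counts with TM, against 73178, 74193 and 75710 counts with vehicle. EPCAM, a surface protein of most carcinoma cells, had 7, 0 and 8 counts with TM, against 1, 6 and 0 counts with vehicle. KRT5, a basal keratin, had 2, 0 and 0 counts with TM, against 4, 0 and 0 counts with vehicle. KRT14, its partner keratin, had 8, 15 and 19 counts with TM, against 0, 4 and 0 counts with vehicle, and the luminal keratin KRT19 had 23, 26 and 9 counts with TM, against 2, 0 and 6 counts with vehicle. CDH1, the gene of E-cadherin, had 61, 56 and 88 counts with TM, against 29, 16 and 34 counts with vehicle. EPCAM, KRT5, KRT14 and KRT19 were thus near 0 in every library, which goes against the label. ALDOA, FTH1 and ASNS, described below, were also counted at low levels, and the part of read counting in these low values was not tested. The samples are therefore called the libraries labelled HCC1937. The total over the 10 breast epithelial markers was 2340 to 2412 CPM with TM and 2931 to 3056 CPM with vehicle, where CPM is the count scaled to library size with TMM factors. Of the 6 tested members 2 were called higher with TM, CDH1 and KRT17, and 3 lower, KRT7, KRT8 and KRT18. The remaining tested member, the growth factor receptor gene EGFR, was not called. Without vehicle replicate 1 or vehicle replicate 2 there were 4 called higher. Those 2 fits tested 19662 and 19499 genes, against 18624 with all 6 libraries. Members near 0 with vehicle can pass the low-count filter there through their TM libraries alone, so these counts depend in part on the filter. Of the receptors, ERBB2 was at 50.6, 59.7 and 56.9 CPM with TM, against 82.8, 75.7 and 87.0 CPM with vehicle, and 1 of 2 tested receptor genes, ERBB2, was called lower (log2 change -0.56 ± 0.06 (SE), adjusted p = 8.93e-08).

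Several of the gene groups below belong to stress programmes that cells run through transcription. In the integrated stress response, kinases that sense lack of amino acids, unfolded proteins or other stress slow translation in general and allow the factor ATF4 to be made, and ATF4 with its partners CHOP and CEBPB then turns on genes of amino acid supply and stress signalling. The factor p53 turns on CDKN1A and other genes that halt the cell cycle or prime cell death. ERK signalling downstream of growth factor receptors turns on immediate early genes together with the DUSP, SPRY and SPRED genes, whose products dampen the same pathway.

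TM and vehicle libraries differed in a large share of genes by mostly small amounts. Less RNA per cell and fewer cells that express a gene cannot be told apart in these bulk libraries. Of 18624 genes tested, 8336 were called at an adjusted p under 0.05 (edgeR quasi-likelihood test, Benjamini-Hochberg adjustment), which is 44.8%. With TM 4039 genes were called higher (21.7%) and 4297 lower (23.1%). The median absolute log2 change of called genes was 0.45, and 61.9% of them changed by less than 1.5-fold. At least 2-fold changes among called genes numbered 925 higher (4.97%) and 561 lower (3.01%). A test against a 1.5-fold change kept 1176 genes (6.31%). The 3 TM libraries lay all on one side of the 3 vehicle libraries in 9846 genes (52.9%). The share called ran from 13.5% in the lowest of 5 equal classes of level to 69.7% in the highest. With all 9 libraries labelled HCC1937 in 1 fit, where 1 AMD3100 library stands apart, 1376 genes were called. Over the gene lists below, which were chosen with earlier results of these data known, 510 of 754 tested genes were called (67.6%). The counts of each list are to be read beside the shares over all tested genes and beside the rise of the called share with level.

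GDF15 and CDKN1A followed DHRSX among the greatest rises that the naming rule takes, which asks for at least 10 CPM in the higher group and groups that do not overlap. The rule leaves out small RNAs such as SNORD3B-1, which rose more, and genes at lower levels such as SPRY4, both described below. GDF15, a secreted stress cytokine (ENSG00000130513, GRCh38 chr19:18374731-18389176), was at 628, 671 and 640.4 CPM with TM, against 38.1, 34.1 and 37.9 CPM with vehicle. CDKN1A, the gene of the cyclin-dependent kinase inhibitor p21 (ENSG00000124762, GRCh38 chr6:36676460-36687339), was at 447, 488 and 458 CPM with TM, against 46.3, 49.1 and 49.9 CPM with vehicle. In both genes every TM library lay far above every vehicle library. GDF15 rose with a log2 change 4.14 ± 0.05 (SE), adjusted p = 5.70e-26, and CDKN1A with a log2 change 3.26 ± 0.05 (SE), adjusted p = 3.16e-24. FGF21, an endocrine growth factor that is induced by stress, was at 12.4, 13.7 and 12.4 CPM with TM, against 1.96, 2.60 and 2.17 CPM with vehicle. FGF21 rose (log2 change 2.51 ± 0.14 (SE), adjusted p = 6.98e-13), and its groups did not overlap.

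The other rises in this set concerned secreted, matrix and regulatory proteins. C1QTNF1, a secreted relative of complement C1q, was at 28.3, 35.9 and 31.1 CPM with TM, against 3.32, 5.88 and 4.74 CPM with vehicle. CCN2, a matricellular protein and a known target of the YAP coactivator, was at 23.1, 21.5 and 22.6 CPM with TM, against 3.79, 4.39 and 4.14 CPM with vehicle. SERPINE2, a secreted inhibitor of serine proteases, was at 111, 97.7 and 108 CPM with TM, against 22.1, 29.9 and 23.0 CPM with vehicle. In each of these 3 genes the lowest TM library exceeded the highest vehicle library, and the log2 changes were 2.77, 2.44 and 2.07. GCNT3, a glycosyltransferase that branches mucin glycans, rose by 2.58 on the log2 scale, with 18.8 ± 1.07 CPM with TM and 3.14 ± 0.389 CPM with vehicle (SD, n = 3 each). KRT15, a basal keratin, rose by 2.48, with 13.7 ± 1.44 CPM with TM and 2.47 ± 0.317 CPM with vehicle. MAFF, a small Maf transcription factor, rose by 2.02, and DKK1, a secreted Wnt inhibitor, rose by 2.01. The groups did not overlap in any of these genes, a condition that the naming rule sets. DHRSX shares its symbol with another feature and is uncertain. It was at 7.79, 7.49 and 33.9 CPM with TM, against 0.523, 0.437 and 1.62 CPM with vehicle, and TM replicate 3 lay far above the other TM libraries (log2 change 4.25, between 3.14 and 5.09 when 1 library was left out).

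**Figure D1:**
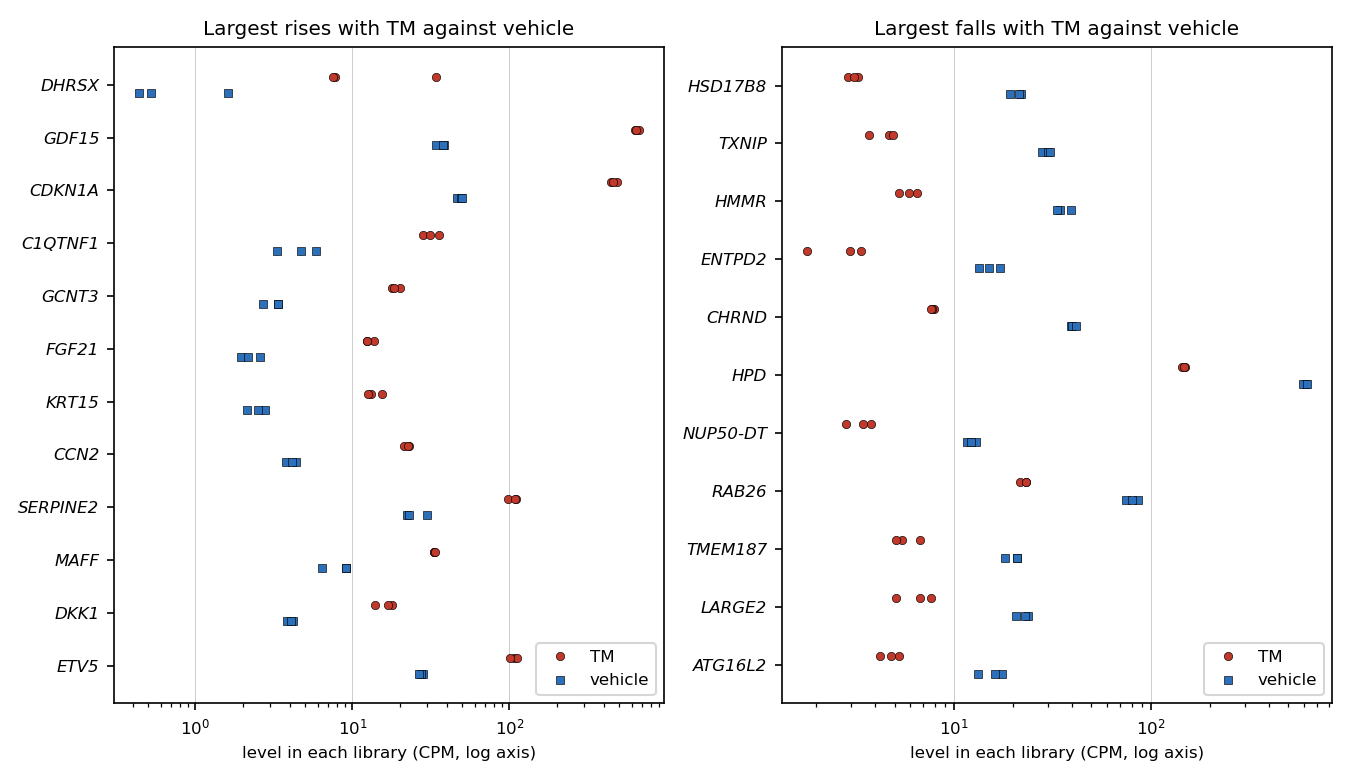
Level in each library, in CPM on a log axis, of the 12 genes with the greatest rises (left panel) and 11 of the 12 with the greatest falls (right panel) chosen by the naming rule, with TM as circles and vehicle as squares. The TM circles of GDF15 lie between 628 and 671 CPM, above vehicle squares between 34.1 and 38.1 CPM, and DHRSX is the 1 gene whose TM libraries spread widely.

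Most regulators of the integrated stress response rose. Of 21 tested regulators 19 were called higher and 1 lower, with a median log2 change of 0.59 against -0.0013 over all tested genes. ATF4 itself was at 846, 871 and 835 CPM with TM, against 646, 643 and 673 CPM with vehicle, which is a rise of 0.38 on the log2 scale. CHAC1, an enzyme that breaks down glutathione, was at 69.6, 69.0 and 70.7 CPM with TM, against 28.3, 22.3 and 24.6 CPM with vehicle (log2 change 1.48 ± 0.07 (SE), adjusted p = 3.05e-14). PPP1R15A, the stress-induced subunit that brings a phosphatase to eIF2α, was at 37.3, 41.3 and 39.2 CPM with TM, against 17.3, 14.9 and 16.4 CPM with vehicle (log2 1.28). The TM libraries of CHAC1 and PPP1R15A agreed closely and lay above all vehicle libraries. NUPR1, a stress-induced chromatin protein, rose by 1.48 and STC2, a secreted glycoprotein, by 1.24. DDIT4, an inhibitor of mTORC1 signalling, was the member called lower (-0.25). CEBPG was not called, at 74.6 ± 0.805 CPM with TM and 71.0 ± 1.49 CPM with vehicle (adjusted p = 0.262).

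The supply genes that ATF4 is known to control moved in both directions. Among amino acid transporters 6 of 11 tested members were called higher and 2 lower (median 0.21). SLC7A11, the cystine importer, was at 40.7, 41.3 and 37.3 CPM with TM, against 18.1, 18.8 and 16.8 CPM with vehicle, and rose by 1.15 on the log2 scale. SLC1A5, a glutamine transporter, rose by 0.76, while SLC43A1 fell by 0.70 and SLC7A5 by 0.25. Of the cytosolic aminoacyl-tRNA synthetases, which charge tRNAs, 10 of 20 were called higher and 9 lower (median 0.05). GARS1, the glycine enzyme, was at 455, 439.7 and 451 CPM with TM, against 272, 276 and 279 CPM with vehicle (log2 change 0.70 ± 0.04 (SE), adjusted p = 1.66e-13), with no overlap. LARS1, the leucine enzyme, fell to 120.4 ± 3.09 CPM with TM, against 199 ± 4.31 CPM with vehicle, and QARS1 and VARS1 changed by -0.72 and -0.61. In serine, one-carbon and asparagine synthesis 6 of 15 tested genes were called higher and 7 lower (median -0.02). CTH, PSPH and GPT2 rose by 0.68, 0.66 and 0.66, whereas ALDH1L2, a mitochondrial folate enzyme, changed by -1.11 and CBS by -0.87. ASNS, the asparagine synthetase and a well known ATF4 target, was counted at only 2.70, 1.80 and 2.84 CPM with TM, against 1.15, 2.04 and 1.82 CPM with vehicle, and was not called (adjusted p = 0.0850). Such a low level for this gene was matched by ALDOA and FTH1 below, and whether reads shared with overlapping features were dropped in counting was not tested.

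Promoters of 2 members are printed because the ATF4 response element can be read in them. The element is TGATGNAA, the core of the composite site of C/EBP and ATF factors, and it was searched on both strands. Windows of 250 bases before to 50 bases after each start site came from RefSeq on GRCh38.p14, and the motif was chosen after the matches had been seen. It occurred in 3.62% of all 35116 windows. Among the tRNA synthetases 7 of 21 windows held it (33.3%), each of a different gene, and of these CARS1, GARS1, MARS1, NARS1 and TARS1 were called higher and AARS1 and IARS1 lower. NARS1 was not called without vehicle replicate 1, and IARS1 was not called without TM replicate 2 or vehicle replicate 2. Of the 9 synthetase genes without it, 4 were called higher and 4 lower. In the stress regulators 4 of 29 windows held it (13.8%) and in the amino acid transporters 5 of 18 (27.8%). In serine, one-carbon and asparagine synthesis 4 of 18 windows held it (22.2%), those of ASNS, which was not called, and MTHFD1L, which was called lower. The 250 bases before the start site are given in lower case with the match in capitals, as TTGCATCA or TTTCATCA where the match is on the other strand. CHAC1 (chr15:40953221-40953470, plus strand) has it 209 bases before the start, and GARS1 (chr7:30594628-30594877, plus strand) 33 bases before.
CHAC1: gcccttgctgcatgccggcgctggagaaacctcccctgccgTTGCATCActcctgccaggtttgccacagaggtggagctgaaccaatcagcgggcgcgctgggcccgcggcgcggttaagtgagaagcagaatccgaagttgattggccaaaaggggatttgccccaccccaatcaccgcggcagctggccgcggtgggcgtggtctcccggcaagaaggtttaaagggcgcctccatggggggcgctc
GARS1: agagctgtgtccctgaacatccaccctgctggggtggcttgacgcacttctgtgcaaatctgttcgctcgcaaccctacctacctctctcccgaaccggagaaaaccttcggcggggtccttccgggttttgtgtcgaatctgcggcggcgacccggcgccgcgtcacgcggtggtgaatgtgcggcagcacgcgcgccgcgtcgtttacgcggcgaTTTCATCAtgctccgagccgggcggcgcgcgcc
A match is a description of the letters, and binding of ATF4 was not measured.

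Genes known as p53 targets were higher with TM in nearly the whole list. Of 25 tested targets 22 were called higher and none lower, with a median log2 change of 0.69. Beside CDKN1A, PHLDA3, an inhibitor of AKT, was at 227, 249 and 237 CPM with TM, against 68.1, 60.1 and 64.6 CPM with vehicle (log2 change 1.89 ± 0.05 (SE), adjusted p = 9.74e-19). TP53INP1, PLK3 and GADD45A rose by 1.72, 1.64 and 1.36 on the log2 scale. BBC3, the pro-apoptotic protein PUMA, was at 44.6, 51.8 and 46.0 CPM with TM, against 18.8, 19.0 and 18.2 CPM with vehicle, and MDM2, the ubiquitin ligase of p53, was at 57.8, 50.7 and 53.6 CPM with TM, against 31.1, 34.9 and 32.6 CPM with vehicle. In PHLDA3, BBC3 and MDM2 no TM library overlapped a vehicle library. XPC, CCNG1 and TRIAP1 were not called. TP53I3 and RRM2B were called at small changes (0.26 and 0.21) and each lost its call in 4 of the 6 fits that left out 1 library.

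Cell cycle brakes and death regulators outside that list gave a narrower picture. Of 7 CDK inhibitors 2 were called higher, CDKN1A and CDKN2B, and none lower. CDKN2B, the inhibitor p15, rose by 0.40 on the log2 scale. CDKN1B was at 45.5 ± 2.68 CPM with TM and 42.9 ± 0.669 CPM with vehicle and was not called (adjusted p = 0.268). Without TM replicate 2 or vehicle replicate 2, 1 CDK inhibitor was called lower. Of 3 tested genes in the GADD45 list, GADD45A and GADD45B were called higher. In the BCL2 family 12 of 15 tested members were called higher and 2 lower (median 0.37). The rises took in both sides of the family. The killers BAX and BAK1 rose by 0.67 and 0.59, and the survival proteins BCL2L1 and MCL1 by 0.67 and 0.26. BAX was at 197, 204 and 179 CPM with TM, against 131, 110.4 and 123 CPM with vehicle. BOK and BAD were called lower (-0.57 and -0.39), BAD not without TM replicate 1, TM replicate 3, vehicle replicate 1 or vehicle replicate 3, which leaves 1 lower member.

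Most early response and feedback genes of ERK signalling rose. Of 26 tested genes 23 were called higher and 1 lower, with a median log2 change of 0.98. SPRY4, a feedback inhibitor of receptor tyrosine kinase signalling, was at 6.93, 8.32 and 8.39 CPM with TM, against 0.784, 0.923 and 0.399 CPM with vehicle (log2 change 3.48 ± 0.22 (SE), adjusted p = 6.53e-12). DUSP4, a phosphatase that inactivates ERK, was at 60.5, 62.8 and 59.2 CPM with TM, against 16.1, 17.0 and 16.4 CPM with vehicle (log2 change 1.88 ± 0.06 (SE), adjusted p = 8.68e-17), and DUSP5, a nuclear ERK phosphatase, was at 47.7, 48.5 and 48.3 CPM with TM, against 12.5, 16.0 and 14.6 CPM with vehicle. The TM libraries of these 3 genes lay above every vehicle library. ETV5, an ETS transcription factor known as an ERK target, was at 107, 112 and 101 CPM with TM, against 28.2, 27.6 and 26.6 CPM with vehicle (log2 change 1.96 ± 0.06 (SE), adjusted p = 3.38e-18). FOSL1, an AP-1 subunit, rose by 1.73 and EPHA2, an ephrin receptor, by 1.58. EGR1 and FOSB rose by 1.41 and 1.41 from low levels, with 8.47 ± 0.823 CPM with TM and 3.17 ± 1.04 CPM with vehicle for EGR1. MYC, a growth factor responsive transcription factor, went the other way and was at 280.2, 275 and 287 CPM with TM, against 468, 478 and 463 CPM with vehicle (log2 change -0.74 ± 0.04 (SE), adjusted p = 6.86e-14). SPRED1 and SPRY1 were not called (adjusted p = 0.548 and 0.864).

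**Figure D2:**
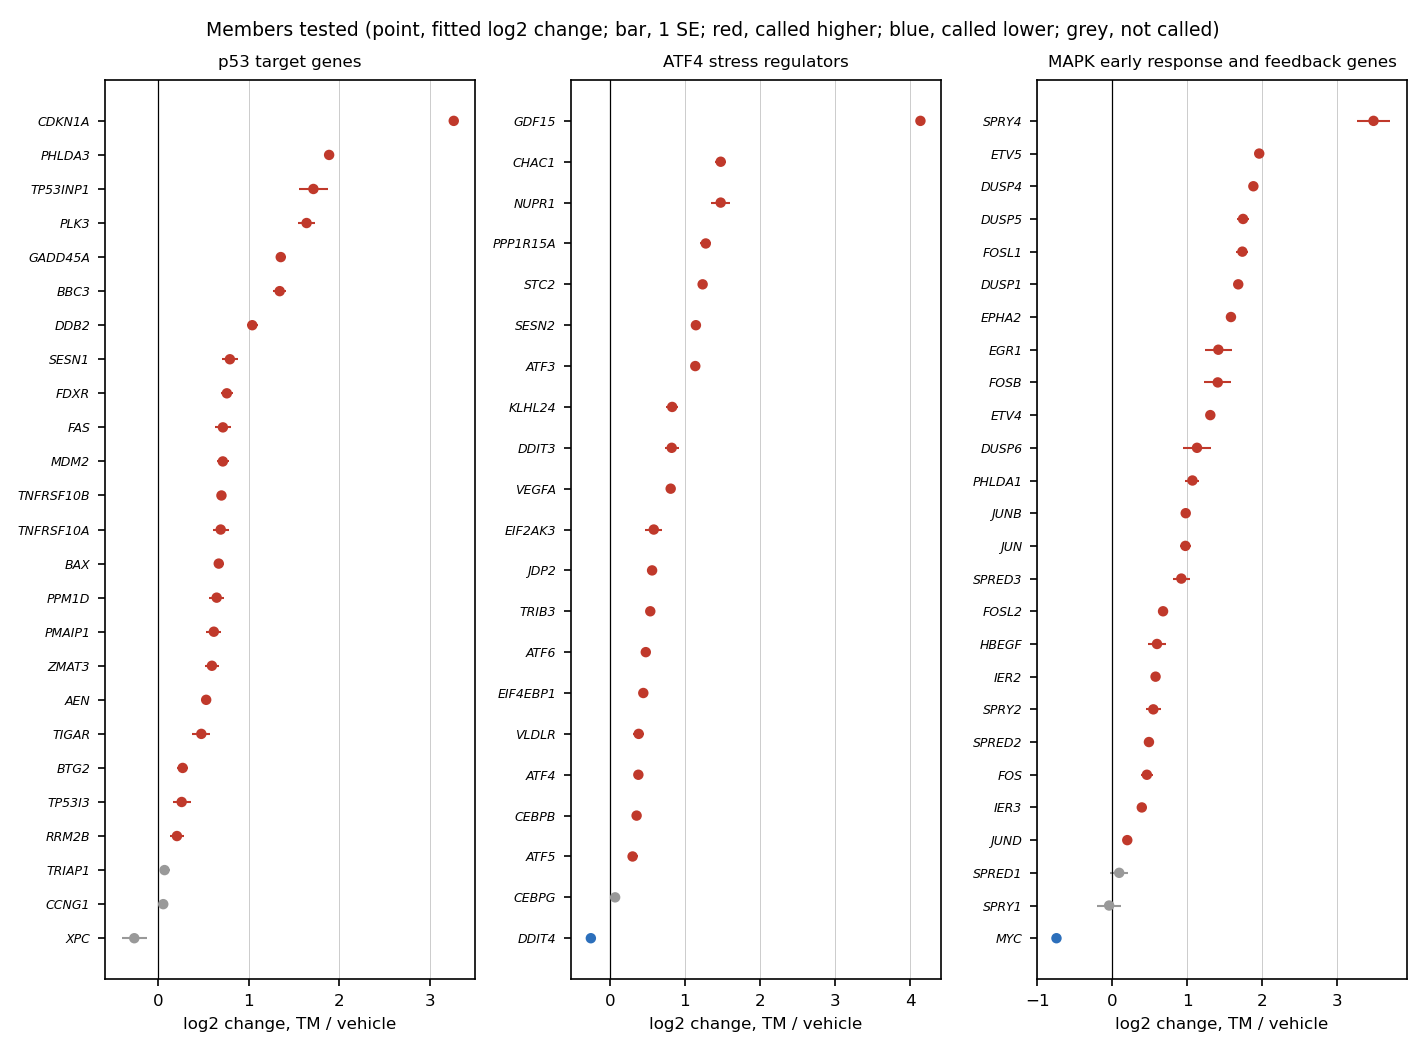
Fitted log2 change, TM over vehicle, of every tested member of 3 lists (p53 target genes, stress regulators of the ATF4 branch, early response and feedback genes of MAPK signalling), with bars of 1 SE, red for called higher, blue for called lower and grey for not called. Nearly all points lie to the right of 0, and MYC and DDIT4 are the 2 members called lower.

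Inflammatory genes were less uniform. In the list of NF-kB subunits and feedback inhibitors 9 of 15 tested genes were called higher and none lower (median 0.19), and 2 were called lower with the correction for GC content and length. TNFAIP3, an inhibitor of NF-kB signalling, was at 19.3, 15.4 and 15.2 CPM with TM, against 10.3, 9.52 and 10.2 CPM with vehicle (log2 0.74), and RELA and NFKB1 rose by 0.33 and 0.37. Of 10 tested chemokines and interleukins 6 were called higher and 1 lower. IL18, a cytokine of the interleukin 1 family, was at 173, 181 and 155 CPM with TM, against 81.5, 76.0 and 82.5 CPM with vehicle (log2 change 1.08 ± 0.05 (SE), adjusted p = 6.99e-14). IL6 and IL11 rose at low levels, to 0.859 and 4.33 CPM on average with TM, against 0.152 and 1.02 CPM with vehicle. CCL5, a chemokine that attracts T cells, was the member called lower (4.59, 3.71 and 3.20 CPM with TM, against 7.29, 7.16 and 8.48 CPM with vehicle). Of 27 tested interferon-stimulated genes 10 were called higher and 4 lower (median 0.21). The share called in this list was not far from the 44.8% over all tested genes. ISG15, a ubiquitin-like modifier, was at 84.0, 82.7 and 79.6 CPM with TM, against 34.9, 32.6 and 34.9 CPM with vehicle (log2 change 1.27 ± 0.06 (SE), adjusted p = 7.17e-15), and IFI44 and ISG20 rose by 1.09 and 0.98. OAS3, IFITM2 and STAT2 were among the 4 called lower, by -0.38, -0.31 and -0.30 on the log2 scale. CXCR4, the target of AMD3100, was at 109.7, 107 and 103 CPM with TM, against 87.1, 102 and 97.6 CPM with vehicle. Its change was small (log2 change 0.16 ± 0.05 (SE), adjusted p = 0.0192) and was not called without TM replicate 1 (adjusted p = 0.0929) or without vehicle replicate 1 (adjusted p = 0.189).

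The greatest falls under the same rule included metabolic, mitotic and membrane proteins. HPD, an enzyme of tyrosine breakdown (ENSG00000158104, GRCh38 chr12:121839527-121863596), was at 145, 149.5 and 147 CPM with TM, against 614, 590.3 and 621 CPM with vehicle (log2 change -2.05 ± 0.04 (SE), adjusted p = 4.64e-22). TXNIP, an inhibitor of thioredoxin and of glucose uptake, was at 4.68, 3.73 and 4.91 CPM with TM, against 28.1, 29.9 and 30.7 CPM with vehicle. In both genes the highest TM library lay far below the lowest vehicle library. HSD17B8, a dehydrogenase of mitochondrial fatty acid synthesis, was at 2.91, 3.26 and 3.13 CPM with TM, against 21.9, 19.3 and 21.4 CPM with vehicle (log2 change -2.75 ± 0.11 (SE), adjusted p = 2.59e-15). CHRND, a muscle-type acetylcholine receptor subunit, fell to 7.78 ± 0.110 CPM with TM, against 40.3 ± 1.20 CPM with vehicle. ENTPD2, an enzyme that hydrolyses extracellular nucleotides, changed by -2.49 on the log2 scale. RAB26, a small GTPase of vesicle traffic, and LARGE2, a glycosyltransferase of dystroglycan, changed by -1.82 and -1.79. ATG16L2, a relative of the autophagy protein ATG16L1, changed by -1.72, TMEM187 by -1.80 and the divergent transcript NUP50-DT by -1.87. Every one of these genes had all TM libraries below all vehicle libraries, which the naming rule requires.

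Most mitotic genes fell, with a small median change. Of 37 tested mitotic genes 29 were called lower and 1 higher, with a median log2 change of -0.26. HMMR, a hyaluronan-binding protein of the mitotic spindle (ENSG00000072571, GRCh38 chr5:163460203-163491945), was at 5.29, 6.47 and 5.91 CPM with TM, against 34.5, 39.4 and 33.3 CPM with vehicle (log2 change -2.60 ± 0.10 (SE), adjusted p = 3.59e-16). That fall stands apart from the other members, of which ASPM, a spindle pole protein, changed by -0.81 and CENPE, a kinetochore motor, by -0.79. MKI67, the proliferation marker Ki-67, was at 84.1, 83.3 and 82.8 CPM with TM, against 136, 134 and 136 CPM with vehicle (log2 change -0.70 ± 0.04 (SE), adjusted p = 6.32e-12). TOP2A, the topoisomerase that separates chromosomes, was at 129, 126 and 136 CPM with TM, against 207, 204 and 201 CPM with vehicle (log2 change -0.64 ± 0.04 (SE), adjusted p = 1.30e-11). In both genes the groups were well apart and the replicates close. CDC25B, a phosphatase that starts mitosis, was the member called higher (0.27), and 2 members were called higher without TM replicate 3 or without vehicle replicate 2. FOXM1, the factor that drives many of these genes, was at 123 ± 2.07 CPM with TM and 118 ± 1.10 CPM with vehicle and was not called (adjusted p = 0.306).

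Many mitotic promoters held the sequence TTTGAA, whether or not their genes were called. The cell cycle homology region TTTGAA, through which the DREAM and MMB complexes act, was searched on both strands, and like the ATF4 element it was chosen after its matches were seen. It occurred in 15.2% of the 35116 promoter windows and in 27 of the 42 windows of mitotic genes (64.3%). Of the 24 mitotic genes with a match, 20 were called lower, 3 were not called and 1 was not tested. Of the 8 without one, 5 were called lower, 1 higher and 2 not at all. In the replication list 2 of 48 windows held it (4.17%). The promoters of HMMR, TOP2A and MKI67 are shown because their values in every library are given above, while ASPM and PRC1, which also hold a match, changed more than TOP2A and MKI67 and are not printed. PRC1 lost its call in 4 of the 6 fits that left out 1 library. Each match is in capitals, as TTTGAA or as TTCAAA where it lies on the other strand. HMMR (chr5:163460382-163460631, plus strand) has 2 adjoining copies 28 and 22 bases before the start, which do not overlap. TOP2A (chr17:40417897-40418146, minus strand) has copies 194 and 151 bases before it, and MKI67 (chr10:128126424-128126673, minus strand) 47 and 29 bases before it.
HMMR: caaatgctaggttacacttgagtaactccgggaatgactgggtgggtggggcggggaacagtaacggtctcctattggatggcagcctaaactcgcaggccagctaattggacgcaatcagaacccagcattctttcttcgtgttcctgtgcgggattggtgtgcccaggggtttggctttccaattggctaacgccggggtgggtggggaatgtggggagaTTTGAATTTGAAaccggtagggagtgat
TOP2A: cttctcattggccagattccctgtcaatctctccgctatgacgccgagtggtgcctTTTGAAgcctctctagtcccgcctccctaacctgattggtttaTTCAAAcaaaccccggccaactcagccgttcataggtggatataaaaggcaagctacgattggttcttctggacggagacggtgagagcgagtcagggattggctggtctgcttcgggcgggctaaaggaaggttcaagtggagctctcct
MKI67: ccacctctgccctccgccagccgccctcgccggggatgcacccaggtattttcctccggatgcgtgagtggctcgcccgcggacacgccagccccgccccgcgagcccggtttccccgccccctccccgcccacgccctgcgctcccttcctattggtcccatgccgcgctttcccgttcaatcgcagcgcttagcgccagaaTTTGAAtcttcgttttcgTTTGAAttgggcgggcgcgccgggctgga
No binding was measured, so the letters describe the promoters only.

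DNA replication genes were lower in most cases as well. Of 42 tested genes 25 were called lower and 3 higher (median -0.23). RRM2, the regulated subunit of ribonucleotide reductase, was at 91.0, 83.5 and 82.0 CPM with TM, against 172, 184 and 177 CPM with vehicle (log2 change -1.05 ± 0.05 (SE), adjusted p = 1.80e-14). PRIM1, a primase subunit, was at 4.09, 4.93 and 5.59 CPM with TM, against 11.1, 11.3 and 10.6 CPM with vehicle (log2 -1.18), and POLE2, a subunit of DNA polymerase epsilon, was at 11.8, 10.2 and 11.2 CPM with TM, against 18.2, 22.2 and 18.1 CPM with vehicle (log2 -0.82). The TM libraries of all 3 genes lay below the vehicle libraries. ORC1, ORC6 and CDT1, which load the replicative helicase, were the 3 called higher, by 0.18, 0.20 and 0.20, and 1 was called higher without TM replicate 2 and with the correction for GC content and length. PCNA, the sliding clamp, was at 154 ± 5.90 CPM with TM and 158 ± 8.14 CPM with vehicle and was not called (adjusted p = 0.587). Among 12 tested cyclins and cyclin-dependent kinases 6 were called lower and 1 higher, with CCNB1 at -0.44 and CCND3, the 1 higher member, at 0.24. In homologous recombination 9 of 23 tested genes were called lower and 2 higher (median -0.18). The share called in this list was close to the 44.8% over all tested genes. PALB2, BRCA2 and RBBP8 changed by -0.54, -0.50 and -0.50, and BRCA1 was at 33.0, 32.5 and 32.3 CPM with TM, against 42.7, 45.3 and 38.7 CPM with vehicle (log2 -0.37). RAD51C and RAD51D were called higher, RAD51D not without vehicle replicate 3, and 4 members were called higher with the correction for GC content and length. Replication-dependent histones had 9 of 15 tested members called lower and none higher, such as H2BC12 (-0.95) and H2AC6 (-1.17). Their mRNAs lack a poly(A) tail and near-identical copies share reads, so their values are uncertain.

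Most cytosolic ribosomal protein genes fell, with a small median change. Of 30 tested genes 23 were called lower and 1 higher, with a median log2 change of -0.15, and the total of the list was 40310 to 42330 CPM with TM, against 45520 to 47100 CPM with vehicle. RPL3 was at 1878, 1877 and 1861 CPM with TM, against 2276, 2313 and 2373 CPM with vehicle (log2 change -0.31 ± 0.03 (SE), adjusted p = 2.44e-09), with no overlap of groups. RPS9, the member called higher (0.12), lost its call without TM replicate 2 or vehicle replicate 2, and 2 members were called higher without TM replicate 3.

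**Figure D3:**
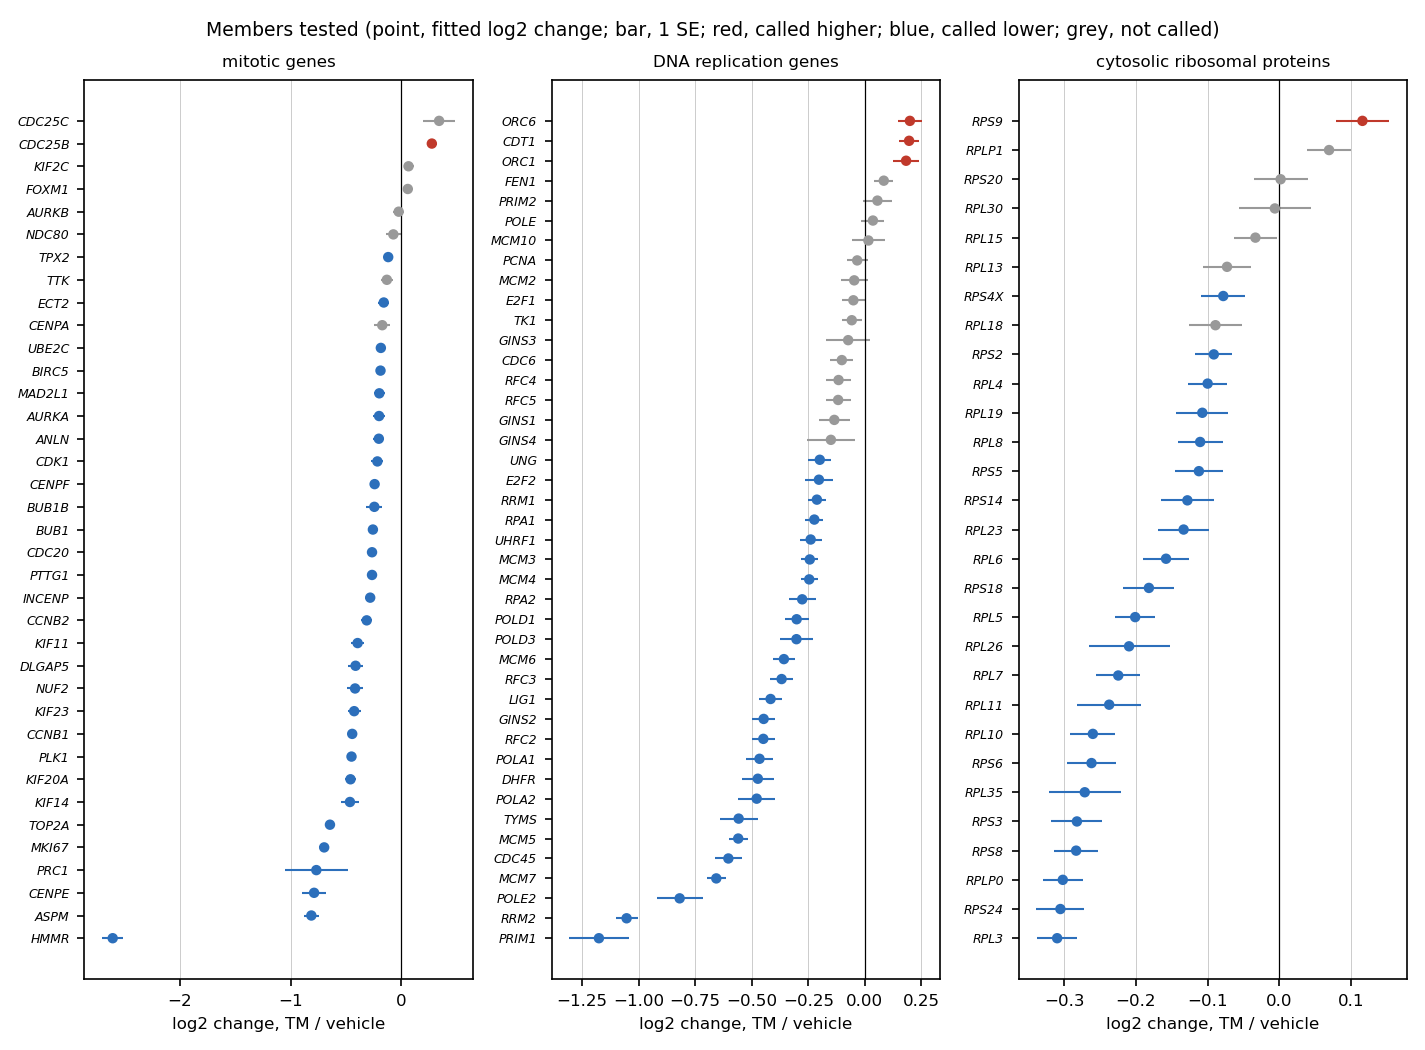
Fitted log2 change, TM over vehicle, of tested members of the mitotic, DNA replication and cytosolic ribosomal protein lists, with bars of 1 SE, red for called higher, blue for called lower and grey for not called. Each panel has its own axis and HMMR lies at -2.60, far from the other mitotic genes.

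In tyrosine breakdown and in fatty acid and cholesterol synthesis more genes were called lower with TM than higher. In the breakdown of phenylalanine and tyrosine 3 of 4 tested genes were called lower and none higher. After HPD these are FAH, which performs the last step, at 14.0, 12.9 and 15.3 CPM with TM, against 31.0, 33.3 and 33.8 CPM with vehicle (log2 change -1.21 ± 0.08 (SE), adjusted p = 1.34e-11), and GSTZ1, the step before it, at 9.93, 9.63 and 8.68 CPM with TM, against 16.7, 19.4 and 19.8 CPM with vehicle (log2 change -0.99 ± 0.10 (SE), adjusted p = 2.17e-08). In fatty acid synthesis 11 of 15 tested genes were called lower and 2 higher (median -0.35). FASN, the fatty acid synthase, was at 674, 721 and 705 CPM with TM, against 1368, 1304 and 1388 CPM with vehicle (log2 change -0.95 ± 0.03 (SE), adjusted p = 2.76e-16), and ELOVL6, a chain elongase, was at 23.9, 21.8 and 22.4 CPM with TM, against 43.9, 44.0 and 43.7 CPM with vehicle. FASN and ELOVL6 showed no overlap between groups. ME1 and ELOVL1 were the 2 called higher (0.24 and 0.21). In cholesterol synthesis 10 of 25 genes were called lower and 4 higher (median -0.10). That share called lay between the 44.8% of all tested genes and the 69.7% of the highest class of level. PMVK, MVD and HSD17B7 changed by -0.88, -0.52 and -0.51. EBP, DHCR7 and SC5D were among the 4 called higher, SC5D not without TM replicate 1, TM replicate 3 or vehicle replicate 3.

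In glycolysis 11 of 19 tested genes were called lower and 2 higher (median -0.13). PFKL, the liver-type phosphofructokinase, was at 126, 143 and 137 CPM with TM, against 265, 236 and 248 CPM with vehicle (log2 change -0.88 ± 0.05 (SE), adjusted p = 6.69e-13), and TPI1 and ENO1 changed by -0.45 and -0.36. ALDOC was called higher (0.43). ALDOA, the other higher member, had only 4.97 ± 0.538 CPM with TM and 3.32 ± 0.811 CPM with vehicle, which is low for a gene that most cells use, and it was not called without TM replicate 2, vehicle replicate 2 or vehicle replicate 3. Known HIF targets were split, with 8 of 22 tested members called higher and 6 lower (median 0.10). NDRG1, VEGFA and P4HA2 rose by 0.96, 0.81 and 0.81. CA9, a carbonic anhydrase that is a classical HIF target, was at 0.818, 1.57 and 1.20 CPM with TM, against 6.92, 7.19 and 7.51 CPM with vehicle (log2 change -2.60 ± 0.20 (SE), adjusted p = 1.70e-10), and BNIP3 changed by -0.44. Among TXNIP, its arrestin relatives and the thioredoxin genes, 3 of 8 were called higher and 5 lower. ARRDC2 and ARRDC1 rose by 0.32 and 0.27, ARRDC3 changed by -0.49 and TXNRD1 by -0.39. The remaining higher gene, TXN2, was not called in any of the 6 fits that left out 1 library.

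Copper and iron genes are set out by role. SLC31A1, the high-affinity copper importer, was at 130.0, 128 and 125 CPM with TM, against 79.0, 79.0 and 82.5 CPM with vehicle (log2 change 0.67 ± 0.05 (SE), adjusted p = 2.32e-11). ATP7B, a copper-exporting ATPase, was at 13.4, 12.4 and 14.9 CPM with TM, against 24.9, 28.5 and 25.2 CPM with vehicle (log2 change -0.95 ± 0.09 (SE), adjusted p = 5.07e-09), while its relative ATP7A was at 11.7 ± 0.253 CPM with TM and 11.6 ± 1.85 CPM with vehicle and was not called (adjusted p = 0.901). Thus SLC31A1 was higher and ATP7B lower with TM, each without overlap of groups, while ATP7A, also a copper-exporting ATPase, was not called. Over 19 tested copper genes 2 were called higher, SLC31A1 and the copper enzyme SOD1 (0.22), and 8 lower (median -0.13), led by the metalloreductase STEAP4 (-1.27) and the amine oxidase LOX (-0.54). For the copper list the share called was not far from the 44.8% over all tested genes. Metallothioneins and zinc transporters had 4 of 8 tested members called higher, namely SLC39A14 (0.83), MT2A (0.34), SLC30A1 and MTF1. SLC39A10 was called lower, but not without TM replicate 2 or vehicle replicate 2, and MTF1 was not called without TM replicate 3. Of 12 tested iron genes 4 were called higher and 4 lower. TFRC, the transferrin receptor, was at 1150.2, 1128 and 1197 CPM with TM, against 674, 707 and 704 CPM with vehicle (log2 change 0.74 ± 0.03 (SE), adjusted p = 1.83e-14), and HMOX1, which frees iron from haem, rose by 0.77. FTL, the ferritin light chain, rose by 0.12. FTH1, the heavy chain, was counted at 12.8, 11.5 and 13.4 CPM with TM, against 3.06, 4.59 and 3.64 CPM with vehicle, and it is uncertain because its copies share reads. PCBP1, FBXL5, CYBRD1 and IREB2 were the 4 called lower, by -0.48, -0.34, -0.32 and -0.25 on the log2 scale.

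Of 15 tested genes of lipoylation and copper-induced death 4 were called higher and 7 lower (median -0.11). LIAS, which makes the lipoyl group, was at 6.50, 8.35 and 6.64 CPM with TM, against 15.8, 14.1 and 13.6 CPM with vehicle (log2 change -1.02 ± 0.12 (SE), adjusted p = 1.38e-07). GCSH, a carrier of that group, was at 11.2, 9.89 and 12.1 CPM with TM, against 18.3, 21.6 and 21.9 CPM with vehicle (log2 -0.89). FDX1, the ferredoxin that serves LIAS, rose by 0.35, and FDXR (0.76) and MTF1 were also called higher, MTF1 not without TM replicate 3. Of the 10 nuclear cytochrome c oxidase subunits 1, COX8A, was called higher (0.28) and none lower. That count depended on single libraries and on the processing, with 4 higher without TM replicate 3, 3 higher with the correction for GC content and length, 2 lower without TM replicate 2 and 1 lower without vehicle replicate 2. Among 30 nuclear subunits of complex I 11 were called lower and 2 higher (median -0.09), with NDUFB5 (-0.75) and NDUFA6 (-0.52) among the lower. NDUFA8 (0.22) and NDUFA13 (0.78) were the 2 higher. The share of complex I genes called was close to the 44.8% over all tested genes. Of the 13 mitochondrially encoded mRNAs 5 were called lower and 1 higher, with MT-ND4L at -0.31 and MT-CO3 at -0.29. This share called was also close to that over all tested genes. With limma-voom 8 of the 13 were called lower and with DESeq2 3. MT-CO2, the higher 1, was called at 0.06 and not without TM replicate 1, TM replicate 2, vehicle replicate 1 or vehicle replicate 2, and 2 were called higher without TM replicate 3. Of 27 tested NRF2 targets, which serve antioxidant defence, 15 were called higher and 6 lower (median 0.24). OSGIN1 rose by 1.01, ABCC3 by 0.45 and NQO1, a quinone reductase, by 0.19. TXNRD1, a thioredoxin reductase, was among the 6 lower.

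Chaperone and proteasome genes did not move as 1 block. Of 22 tested cytosolic heat shock genes 5 were called higher and 11 lower (median -0.16). HSPA1A, the stress-induced HSP70, was at 317, 343 and 322 CPM with TM, against 595, 543 and 587 CPM with vehicle (log2 change -0.81 ± 0.04 (SE), adjusted p = 1.08e-13), and HSPA1B and HSPA8 changed by -0.64 and -0.61. The HSP70 genes are close relatives that share reads, so the split between them is uncertain. HSPB8, a small heat shock protein of selective autophagy, was at 77.9, 77.8 and 82.1 CPM with TM, against 37.3, 39.9 and 37.7 CPM with vehicle (log2 change 1.05 ± 0.05 (SE), adjusted p = 1.77e-13), and CRYAB, another small heat shock protein, rose by 0.76, followed by DNAJB4, BAG3 and DNAJB1. In the endoplasmic reticulum list 7 of 22 genes were called higher and 8 lower (median 0.03), and 4 were called higher without TM replicate 3. HERPUD1 and DNAJB9 rose by 0.55 and 0.49, while CRELD2 and HSP90B1 changed by -0.59 and -0.57. HSPA5, the chaperone BiP, was at 834, 823 and 829 CPM with TM, against 817, 839 and 818 CPM with vehicle, with overlapping groups and no call (adjusted p = 0.878). Of 32 tested constitutive proteasome subunits 14 were called higher and 4 lower (median 0.04). This share called lay between the 44.8% of all tested genes and the 69.7% of the highest class of level. ADRM1, PSMD3 and PSMB7 rose by 0.36, 0.31 and 0.30, and PSMD8, PSMD4, PSMC5 and PSMA3 were the 4 lower. PSMB5, the subunit that bortezomib binds, was at 216, 226 and 209 CPM with TM, against 207, 196 and 200.2 CPM with vehicle. Its change (log2 change 0.11 ± 0.04 (SE), adjusted p = 0.0354) was not called without TM replicate 1, TM replicate 2, vehicle replicate 2 or vehicle replicate 3 (adjusted p = 0.0771, 0.181, 0.120 and 0.108).

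Most antigen processing genes were called lower. Of 5 tested subunits of the immunoproteasome and its PA28 activator 4 were called lower and none higher (median -0.67). PSMB9, a catalytic subunit that interferon induces, was at 8.43, 7.28 and 9.08 CPM with TM, against 25.1, 19.9 and 21.9 CPM with vehicle (log2 change -1.43 ± 0.11 (SE), adjusted p = 1.03e-10). PSME1, an activator subunit, was at 64.3, 59.1 and 61.9 CPM with TM, against 97.4, 99.7 and 96.1 CPM with vehicle (log2 -0.66), and PSME2, its partner, changed by -0.57. PSMB10, at 1.70 CPM with TM and 2.70 CPM with vehicle, was not called without TM replicate 3 or vehicle replicate 3. Of 14 tested genes of MHC class I presentation 10 were called lower and none higher (median -0.25), and 6 were called lower without vehicle replicate 1. TAP1, a peptide transporter subunit, was at 24.3, 28.4 and 27.8 CPM with TM, against 36.2, 37.4 and 38.4 CPM with vehicle (log2 -0.48), and ERAP1, which trims peptides, changed by -0.58. B2M, the light chain of class I molecules, was at 214, 206 and 219 CPM with TM, against 220.3, 215 and 209.6 CPM with vehicle, with overlapping groups (adjusted p = 0.831). HLA-E changed by -0.24, and its reads can be split with related genes.

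Clearance genes leaned upwards. Of 20 tested genes of autophagy 11 were called higher and 3 lower (median 0.14). MAP1LC3B, an ATG8 protein of the autophagosome membrane, was at 129, 131 and 133 CPM with TM, against 88.7, 82.0 and 80.7 CPM with vehicle (log2 change 0.64 ± 0.05 (SE), adjusted p = 8.89e-11). ATG16L1, OPTN and ULK1 rose by 0.58, 0.58 and 0.57, and SQSTM1, the receptor p62, by 0.21. Without TM replicate 1 there were 7 higher and 1 lower. The 3 lower genes, NBR1, ATG7 and BECN1, all had small changes, and no more than 1 was called without TM replicate 2, TM replicate 3 or vehicle replicate 3 and none without vehicle replicate 1. Of 25 tested lysosomal genes 12 were called higher and 5 lower (median 0.13). NEU1, the lysosomal sialidase, was at 130.3, 128 and 135 CPM with TM, against 70.3, 66.7 and 68.4 CPM with vehicle (log2 change 0.94 ± 0.05 (SE), adjusted p = 8.86e-14), and CTSD and CTSL, both cathepsins, rose by 0.76 and 0.72. GAA, the lysosomal glucosidase, was at 65.6, 74.2 and 68.4 CPM with TM, against 113, 104 and 111 CPM with vehicle (log2 -0.66), and CTSZ changed by -0.55.

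Of 20 tested keratins and junction genes 9 were called higher and 4 lower (median 0.71). KRT16, a keratin of stressed epithelia, was at 11.2, 9.32 and 9.35 CPM with TM, against 1.75, 2.33 and 2.72 CPM with vehicle (log2 change 2.13 ± 0.16 (SE), adjusted p = 1.34e-10), and KRT17 was at 11.5, 9.34 and 9.68 CPM with TM, against 4.70, 5.75 and 4.44 CPM with vehicle (log2 1.04). JUP, plakoglobin of cell junctions, was at 617, 666 and 663 CPM with TM, against 369, 347 and 361 CPM with vehicle (log2 change 0.85 ± 0.04 (SE), adjusted p = 1.51e-14). The simple keratins KRT18 and KRT8 fell by 0.54 and 0.33, so members of 1 family moved in both directions. PKP3 and KRT7 were the other 2 called lower. Of 17 tested EMT factors and mesenchymal genes 7 were called higher and 2 lower (median 0.17). Their share called was not far from the 44.8% over all tested genes. ITGA5, a fibronectin receptor subunit, was at 116, 121 and 118 CPM with TM, against 63.7, 70.9 and 68.3 CPM with vehicle (log2 change 0.81 ± 0.05 (SE), adjusted p = 4.48e-12), and THBS1 rose by 0.69. VIM, vimentin, was at 296, 289 and 287 CPM with TM, against 375, 381 and 385 CPM with vehicle (log2 -0.39). FN1, at under 1 CPM, was the other lower member, and of the 6 fits that left out 1 library it was called only in that without vehicle replicate 1.

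Markers of other cell types were counted in the same fit. In the macrophage list 2 of 3 tested members were called higher, CD14 (1.73) and CSF1R (0.76), and the list's total was 13.9 to 17.1 CPM with TM and 7.42 to 8.53 CPM with vehicle, with CD163 and TYROBP at 0 in all 6 libraries. In the lymphocyte list 0 of 1 tested member was called, the total was 0.318 to 1.33 CPM with TM and 0.413 to 1.23 CPM with vehicle, and CD3E, GZMB and MS4A1 were at 0. Without TM replicate 3, 1 member was called lower. Among fibroblast markers the 2 tested members, COL1A1 and PDGFRB, were called higher (total 222.6 to 230.6 CPM with TM, 143.5 to 148.8 CPM with vehicle). Among endothelial markers 1 of 4 tested members, CDH5 at 1.25 CPM with TM and 0.427 CPM with vehicle, was called higher. The total was 5.84 to 7.02 CPM with TM and 3.58 to 5.32 CPM with vehicle, and KDR was at 0. The macrophage, lymphocyte and endothelial totals were thus low, while the fibroblast total was not. The part of these markers in any result was not tested.

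RNAs without a poly(A) tail had the greatest median log2 change of the 48 lists, 5.74, in libraries made from poly(A) RNA. All 8 tested members were called higher with TM, while 10 of the listed features were at 0 in all 6 libraries. Members near 0 with vehicle, such as SNORD3A, can pass the low-count filter through their TM libraries alone. This count and this median thus depend in part on the filter. The total of the list, tested or not, was 172.7 to 206.7 CPM with TM, against 39.99 to 50.79 CPM with vehicle. SNORD3B-1, a copy of the U3 small nucleolar RNA, was at 70.2, 74.8 and 71.2 CPM with TM, against 0.340, 0.558 and 0.399 CPM with vehicle (log2 change 7.36 ± 0.12 (SE), adjusted p = 1.26e-23). SNORD3A, another copy, was at 17.3, 18.3 and 17.9 CPM with TM, against 0.392, 0.170 and 0.150 CPM with vehicle, with no overlap in either gene. The list held 0.0211%, 0.0173% and 0.0204% of counts with TM, against 0.0050%, 0.0040% and 0.0042% with vehicle. These copies are nearly identical and share reads, so values of single copies are uncertain. Whether these RNAs carry A-rich ends or entered the libraries in another way was not tested.

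**Figure D4:**
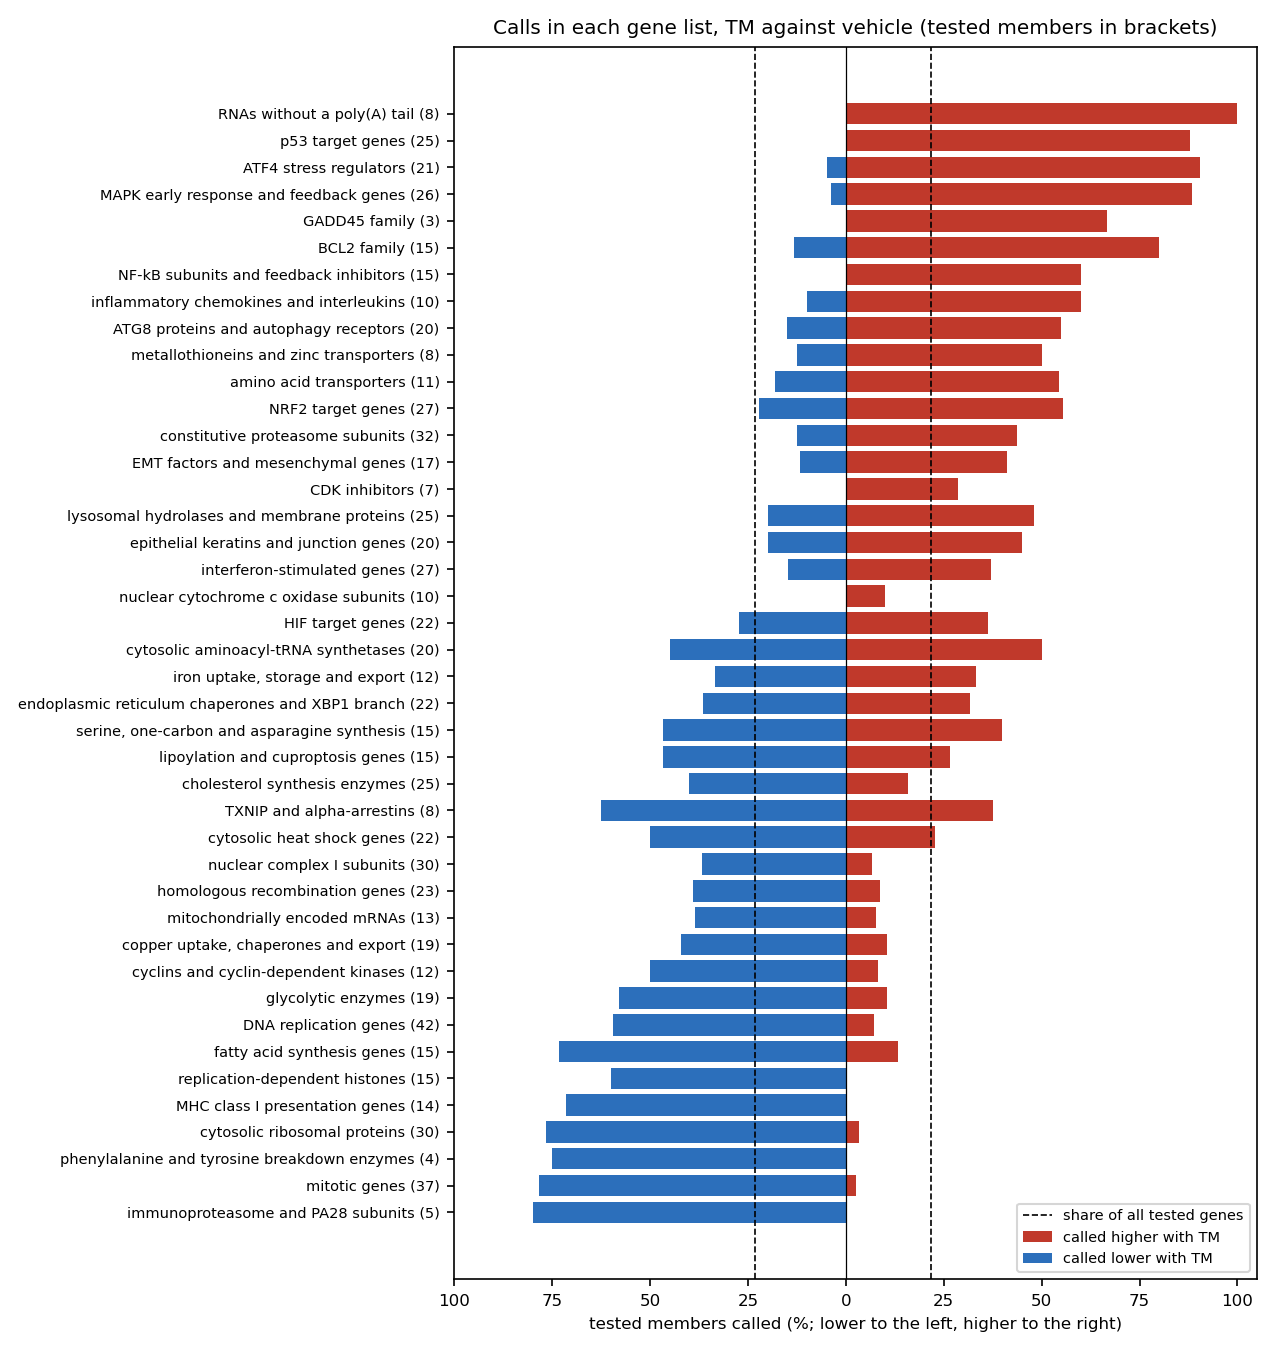
Share of tested members called higher with TM (right, red) and lower with TM (left, blue) in 42 gene lists, in percent, with the number of tested members in brackets and dashed lines at the shares over all tested genes. The background shares are 21.7% higher and 23.1% lower, and the lists run from RNAs without a poly(A) tail, p53 targets and ATF4 stress regulators at the top to mitotic genes and immunoproteasome subunits at the bottom.

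TM was also set against AMD3100 at the same dose of 10 µM in the libraries labelled HCC1937, to ask whether both agents left the cells alike. The first AMD3100 library stood apart, with 19.9% mitochondrial counts against 10.5% to 10.6% in the other AMD3100 libraries and 20639 features with a count against 29583 and 29997. With it, 252 of 18545 genes were called (1.36%), 114 higher with TM (0.615%) and 138 lower (0.744%). Without it, 7541 of 19477 genes were called (38.7%), 3555 higher with TM (18.3%) and 3986 lower (20.5%). Leaving out any other 1 of the 6 libraries gave 1 call each time. GDF15 was at 628, 671 and 640.4 CPM with TM, against 25.2, 82.0 and 84.2 CPM with AMD3100 (log2 3.30, adjusted p = 0.0340). Without the first AMD3100 library the difference was log2 2.91 ± 0.05 (SE), adjusted p = 2.58e-26. CDKN1A was at 447, 488 and 458 CPM with TM, against 35.7, 54.9 and 58.7 CPM with AMD3100 (log2 3.18, adjusted p = 0.0112), and without that library the difference was log2 2.99 ± 0.06 (SE), adjusted p = 9.53e-26. All TM libraries exceeded all AMD3100 libraries in both genes.

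Some genes that differed between TM and vehicle were not called between TM and AMD3100. TRIB3, a pseudokinase that ATF4 induces, was at 157, 174 and 169 CPM with TM, against 153, 155 and 172 CPM with AMD3100, with overlapping groups and no call with the first AMD3100 library (adjusted p = 0.956) or without it (adjusted p = 0.839). CA9 was at 0.818, 1.57 and 1.20 CPM with TM, against 0.646, 0.981 and 1.53 CPM with AMD3100 and was not called with that library (adjusted p = 0.908) or without it (adjusted p = 0.836). For TRIB3 and CA9 too the CPM of the 2 agents are on unlike scales, so their overlap is approximate. A missing call does not show that the agents act alike. TRIB3 and CA9 were named here after their values were seen. Without the first AMD3100 library 20 of 25 p53 targets were higher with TM and none lower, and 28 of 37 mitotic genes were lower and none higher. With it, 2 p53 targets were higher and 2 mitotic genes lower. The TM libraries enter both comparisons, so these counts and those against vehicle are not independent.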

How the data were processed

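The authors deposited a table of raw read counts per gene, with a column for each library labelled HCC1937, and these counts were used as they stand. Per the submitters' processing notes, reads were counted with featureCounts 2.0.1 on the GRCh38 build and summarised with MultiQC 1.11. The aligner and the annotation version are not given in the sources used here. Of counts between 1 and 20, 56.9% to 59.8% were even in the 6 libraries, so read mates may be counted singly in part. Symbols were matched to 61481 of 78932 features by identifier, and positions are those of GENCODE 29 for 57356 features. Every column was matched to a library by its name. Total counts ran from 38189932 to 43973262 in the 6 libraries, and count-based tests cover the spread between libraries only.

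TM and vehicle were fitted on their 6 libraries alone with edgeR 4.0.16 in R 4.3.3, using filterByExpr, TMM scaling and the quasi-likelihood F test. Benjamini-Hochberg adjustment ran over every tested gene, and genes with an adjusted p under 0.05 count as called. The SE of a log2 change is its size over the root of the F value. On counts simulated for 17637 genes in the TM against vehicle design, only 200 genes were changed, 50 at each fold. The test called 52% of those changed 1.2-fold, 74% at 1.5-fold, 98% at 2-fold and 98% at 4-fold, with 14 false calls. How these values hold with as many changed genes as were called between TM and vehicle was not tested.

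The comparison, the 48 gene lists (856 of 857 genes had a feature) and the naming rule were chosen with earlier results of these data known. The rule names the 12 greatest rises and falls among called genes with a regular symbol, at least 10 CPM in the higher group and groups that do not overlap. From each list it takes the called members with the largest changes that reach 5 CPM, and any member needed to account for a count of 5 or fewer. CXCR4, PSMB5, SLC31A1 and ATP7B are given whatever their result. Genes named beyond that (among them well known members that were not called) were chosen after their values were seen. A few genes that these rules would name are not reported here. Alternatives were median-of-ratios scaling, no filter, a replicate block, other sets of libraries, DESeq2 1.42.0, limma-voom (limma 3.58.1), halved counts, other thresholds, fewer features, and a correction for GC content (20 bins) and gene length (5 bins).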

Additional observations from a re-analysis of the deposited data

How the results depend on the processing

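For TM against vehicle, 8336 genes were called, and 7474 to 7833 when 1 library was left out. Between 7915 and 8637 were called with median-of-ratios scaling, DESeq2, limma-voom, no filter, halved counts, 8 libraries, fewer features, the GC and length correction and the replicate block. The result depended on the spread and on the size asked for. With all 9 libraries labelled HCC1937 in 1 fit, 1376 genes were called, 576 higher and 800 lower, where the common coefficient of variation was 0.339 against 0.0722. A test against a 1.5-fold change called 1176, 643 higher and 533 lower, and a 2-fold limit left 1486, 925 higher and 561 lower. The number of list members called, 510, became 135, 107 and 72 in these 3 settings, and 474 to 500 without 1 library. Same-numbered TM and vehicle libraries did not deviate together (correlations 0.0012, -0.0045 and 0.0098), so the numbers were not taken to pair them, and with the replicate block 7915 genes and 488 list members were called. Of the 24 genes with the greatest rises and falls and of CXCR4, PSMB5, SLC31A1 and ATP7B, none changed direction in these settings. The 24 were picked from these same libraries for large changes and groups that do not overlap. Their direction could therefore hardly change, and its constancy is no independent support. SLC31A1 was not called past a 1.5-fold limit (adjusted p = 0.118). PSMB5 was not called without the filter, with the replicate block or with the GC and length correction. CXCR4 and PSMB5 were not called past 1.5-fold or with 9 libraries. Low levels limit TM against vehicle, where 13.5% of genes were called in the lowest of 5 classes of level. The Spearman correlation of the log2 change, TM over vehicle, with GC content was 0.148 over 16837 genes, which share the same libraries.

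For TM against AMD3100, the 252 calls became 7541 without AMD3100 replicate 1 and 1 without any other library, so the lowest and highest values were 1 and 7541. The replicate block gave 1 call and no filter 454.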
